A study of Bos taurus with 15 samples.

Results

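Polycomb proteins keep genes silent through chromatin, and the transcripts described here encode RYBP and the parts of the complexes in which it works. The 10 genes were RYBP, YAF2, RING1, RNF2, PCGF1, PCGF6, EED, SUZ12, EZH2 and JARID2. They were chosen by name around RYBP, with earlier results of these data known. All 10 were found among the 10832 genes of the filtered count table, which the authors cut down from 34773 genes. The authors sequenced total RNA from pools of bovine (Bos taurus) blastocysts made by in vitro fertilisation, with 15 libraries in all. Control embryos (Co, 5 libraries) were cultured without supplementation, FeEV embryos (5 libraries) with freshly isolated extracellular vesicles of the oviduct (oEVs), and FoEV embryos (5 libraries) with oEVs that had been frozen and thawed. The oEVs came from postovulatory oviducts of cows at a slaughterhouse, and each oEV preparation was split into a fresh and a frozen portion. Each library was made from 1 ng of RNA of 1 pool of 8 to 14 embryos at the blastocyst stage, labelled as day 7, whereas the text of the study gives 8 days of culture. The pools with the best RNA were selected for sequencing, so the libraries are not a random sample of the pools, and no label gives the parents or the cell number of a pool.

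Polycomb repressive complex 1 (PRC1) is built on a RING subunit, RING1 or RNF2, which attaches ubiquitin to a core histone, and on 1 member of the PCGF family. In variant PRC1, RYBP or its paralog YAF2 takes the place that a chromobox (CBX) protein holds in canonical PRC1, and RYBP can bind the ubiquitin mark that the complex makes. Polycomb repressive complex 2 (PRC2) consists of EED, SUZ12 and the methyltransferase EZH2 or EZH1, methylates a lysine of histone H3, and is joined by cofactors such as JARID2. In mammalian embryos these complexes hold developmental regulators such as the HOX genes silent until they are needed.

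The libraries held 2136713 to 4058887 counts on genes, and every FoEV library (3392613 to 4058887) was deeper than every Co library (2571558 to 2977004), with FeEV from 2136713 to 3808602. Values below are CPM, the counts of a gene relative to the library total, after TMM scaling, a correction for library composition, and a change is a log2 fold change fitted by edgeR over the 15 libraries. Levels of different genes are not compared, since CPM are not corrected for transcript length. All 6 trophectoderm markers passed the filter, and their summed level was 6225 to 8477 CPM in Co, 6752 to 10280 in FeEV and 8112 to 11000 in FoEV. The keratins KRT8 and KRT18 made up most of this sum, and the list was not uniform. Between FoEV and Co KRT18 differed by 0.55, KRT8 by 0.25, GATA2 by 0.34, GATA3 by 0.19, CDX2 by 0.21 and TFAP2A by -0.49 on the log2 scale, none past the adjusted threshold of edgeR (smallest adjusted p = 0.0818, KRT18). The 3 inner cell mass markers summed to 233.2 to 306.3 CPM in Co, 231.6 to 291.5 in FeEV and 219.4 to 337.5 in FoEV, most of it POU5F1. NANOG of this list was lower in EV-treated embryos, with 80.4 ± 19.9 CPM in Co, 52.1 ± 13.2 in FeEV and 45.0 ± 16.7 in FoEV, a log2 difference from Co of -0.62 in FeEV (edgeR unadjusted p = 0.03423, adjusted p = 1) and of -0.84 in FoEV (edgeR unadjusted p = 0.006414, adjusted p = 0.178). POU5F1 and SOX2 differed between FoEV and Co by 0.21 and -0.03. The part of these markers in the results below was not tested. Marker lists of cumulus and granulosa cells (2 of 5 genes past the filter), oviduct epithelium (1 of 3) and blood (0 of 2, HBB at 0 counts in every library) reached at most 44.56, 13.86 and 6.41 CPM in a library. In pools of whole embryos, fewer cells of a type and less RNA per cell cannot be told apart.

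RYBP (gene 616217), the adaptor that gives variant PRC1 its identity, had the smallest p of the 10 genes in FoEV treatment vs. Co. The 5 Co libraries held 203.1, 248.0, 211.6, 282.6 and 180.2 CPM of RYBP. The FeEV libraries held 197.6, 210.2, 189.6, 231.4 and 176.3 CPM. The FoEV libraries held 156.1, 176.1, 144.9, 191.6 and 133.3 CPM. Thus 4 of the 5 FoEV libraries lay below the lowest Co library, and the fifth, at 191.6 CPM, lay above 1 Co library, so that the groups overlapped. The means were 225.1 ± 40.35 CPM in Co, 201.0 ± 20.98 in FeEV and 160.4 ± 23.53 in FoEV (n = 5, ± SD).

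RYBP was lower in FoEV-treated embryos than in Co by 28.8%, a log2 fold change of -0.49 (standard error 0.12, 95% interval -0.74 to -0.24). It ranked 51 by p among all genes tested (unadjusted p = 0.0004394) and did not pass the adjusted threshold of 0.05 in the quasi-likelihood test of edgeR (adjusted p = 0.0918). The study lists RYBP as changed in this comparison of the same libraries, so its low p here is no independent evidence. RYBP passed in the Wald test of DESeq2 (adjusted p = 0.01614) and in edgeR's likelihood ratio test with robust dispersions (adjusted p = 0.01319). The latter is the kind of test that the study's methods name. In the edgeR test on all genes with at least 1 count RYBP also passed (adjusted p = 0.002045). The change in these fits was from -0.47 to -0.50. When the log2 total count was added as a covariate, a setting chosen after the data were seen, the change was -0.21 (edgeR unadjusted p = 0.1871, adjusted p = 0.647). With every library thinned to the smallest total it was -0.53 (edgeR adjusted p = 0.0898). Since no FoEV library was as shallow as a Co library, depth and treatment cannot be told apart here.

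FeEV treatment vs. Co gave -0.17 for RYBP (95% interval -0.41 to 0.08, edgeR unadjusted p = 0.1772, adjusted p = 1). With 1 library left out in turn, this change ran from -0.23 (without Co replicate 5) to -0.07 (without Co replicate 4). FoEV vs. FeEV treatment gave -0.32 (95% interval -0.57 to -0.08, edgeR unadjusted p = 0.01218, adjusted p = 0.496), and -0.09 with the total count covariate (edgeR unadjusted p = 0.5005). The mean of RYBP in FeEV embryos thus lay between the other means, and its distance from Co was within the spread of the libraries. Both EV comparisons with Co use the same 5 Co libraries.

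**Figure D1:**
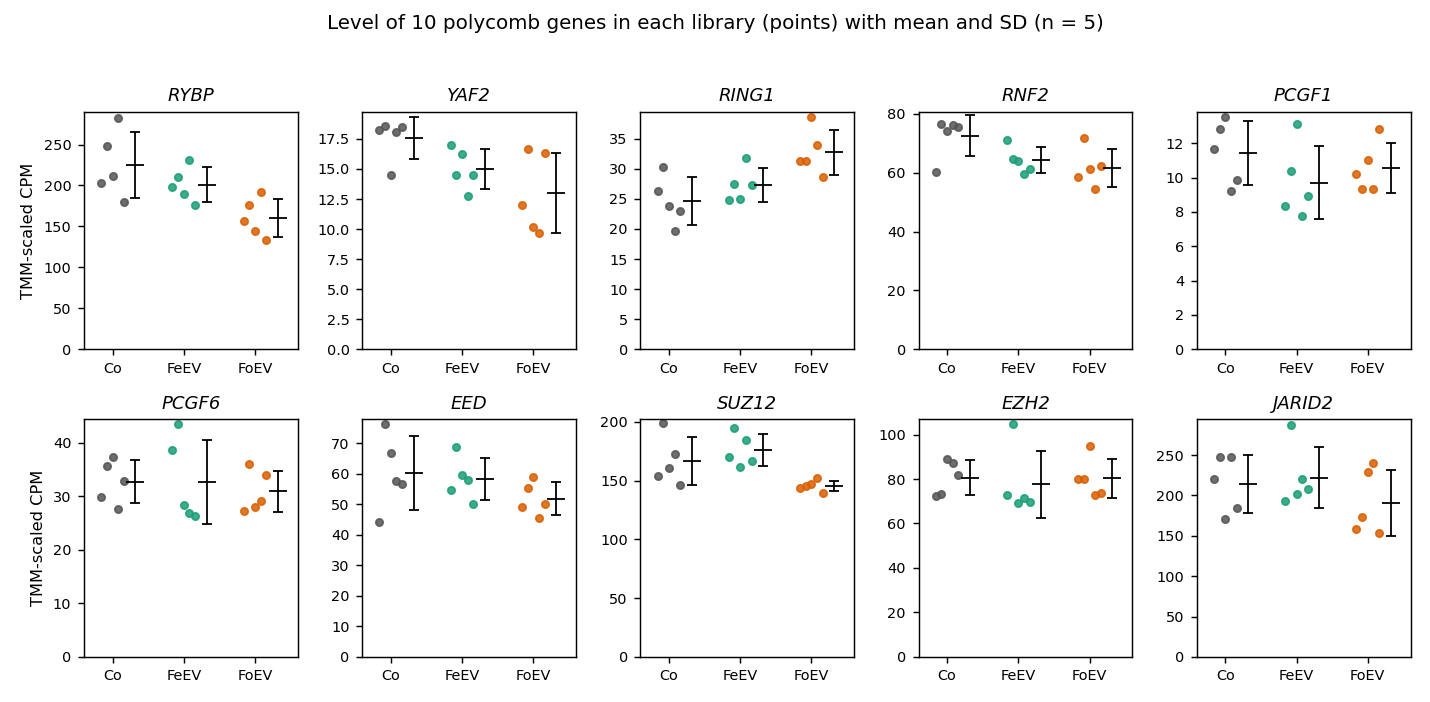
TMM-scaled CPM (vertical axes, starting at 0) of the 10 polycomb genes in each of the 15 libraries, by treatment (Co, FeEV, FoEV). Points are libraries, and the horizontal mark with its bar is the mean with the SD (n = 5). RYBP had means of 225.1, 201.0 and 160.4 CPM in the 3 treatments, RING1 of 24.63, 27.30 and 32.76, and SUZ12 of 166.6, 175.7 and 145.4.

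YAF2 (gene 536696), the paralog that occupies the same place as RYBP, was also lower in FoEV-treated embryos. Its levels were 18.23, 18.56, 14.51, 18.06 and 18.47 CPM in Co and 16.99, 14.48, 16.27, 12.75 and 14.53 CPM in FeEV. In FoEV they were 12.04, 16.65, 10.19, 9.682 and 16.36 CPM. In FoEV 3 libraries lay below every Co library, and the other 2 lay within the Co range. The log2 fold change was -0.43 for FoEV treatment vs. Co (standard error 0.17, 95% interval -0.78 to -0.07, edgeR unadjusted p = 0.02189, adjusted p = 0.241), -0.22 for FeEV treatment vs. Co (edgeR unadjusted p = 0.224) and -0.21 for FoEV vs. FeEV treatment (edgeR unadjusted p = 0.2429). With log2 total count as a covariate, the change of YAF2 in FoEV treatment vs. Co was -0.56 (edgeR unadjusted p = 0.04383). With every library thinned to the smallest total it was -0.29 (edgeR unadjusted p = 0.1295). Thinning was a single random draw from 28 to 66 counts of YAF2 in a library, so the noise of the draw is part of that value.

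The ratio of RYBP to YAF2 counts within a library does not depend on scaling and describes the balance of the paralogs. Its mean over 5 libraries was 12.9 ± 2.43 (SD) for Co, 13.6 ± 2.80 for FeEV and 13.1 ± 4.38 for FoEV. The log2 ratio differed by -0.02 between FoEV and Co (two-sided exact permutation test over 252 assignments, p = 0.9365), by 0.08 between FeEV and Co (exact permutation p = 0.6667) and by -0.09 between FoEV and FeEV (exact permutation p = 0.7222), each with an adjusted p of 0.9365 over 6 ratio tests. The lower levels of both genes in FoEV embryos left no difference in their ratio beyond the spread between libraries, which ran from 8.15 to 19.79 within FoEV alone. With thinned counts the difference between FoEV and Co was -0.21 (exact permutation p = 0.3651).

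RING1 and RNF2 (also known as RING1B), the alternative RING subunits and the only catalytic members of PRC1 among the 10 genes, differed in opposite directions between FoEV and Co, neither past the adjusted threshold. RING1 (gene 100125778) had 26.25, 30.36, 23.86, 19.67 and 22.98 CPM in Co and 24.74, 27.48, 25.02, 31.88 and 27.37 CPM in FeEV. In FoEV it had 31.26, 31.28, 38.57, 34.05 and 28.62 CPM. It was the only one of the 10 genes that was higher in FoEV than in Co, where 4 of 5 FoEV libraries lay above every Co library. The change was 0.41 (standard error 0.13, 95% interval 0.13 to 0.68, edgeR unadjusted p = 0.005977, adjusted p = 0.175). Between FoEV and FeEV treatment it was 0.27 (95% interval -0.01 to 0.54, edgeR unadjusted p = 0.05406), and between FeEV treatment and Co 0.14 (edgeR unadjusted p = 0.326, with 0.07 without Co replicate 4 and 0.23 without Co replicate 2).

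RNF2 (gene 540090), described in embryos as the main ubiquitin ligase of PRC1, had 60.16, 76.58, 74.17, 76.26 and 75.51 CPM in Co. It had 71.23, 64.62, 64.12, 59.66 and 61.45 CPM in FeEV and 58.58, 71.89, 61.44, 54.42 and 62.43 CPM in FoEV. Apart from Co replicate 1, the Co libraries held more RNF2 than every EV-treated library. The log2 fold change of FoEV treatment vs. Co was -0.23 (standard error 0.10, 95% interval -0.44 to -0.02, edgeR unadjusted p = 0.03169, adjusted p = 0.278), and that of FeEV treatment vs. Co was -0.17 (edgeR unadjusted p = 0.1003). Between the EV treatments the change was -0.06 (95% interval -0.27 to 0.15, edgeR unadjusted p = 0.5801).

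RYBP binds the RING subunit directly, and the mean ratio of RYBP to RNF2 counts was 3.11 ± 0.508 (SD, n = 5) for Co, 3.15 ± 0.447 for FeEV and 2.63 ± 0.535 for FoEV. The log2 ratio differed by -0.25 between FoEV and Co (exact permutation p = 0.1746, adjusted p = 0.524 over the 6 ratio tests) and by -0.27 between FoEV and FeEV (exact permutation p = 0.119, adjusted p = 0.524). The FeEV ratio was 0.02 above that of Co on the log2 scale (exact permutation p = 0.8571). None of the 6 ratio comparisons had an adjusted p under 0.05 in the exact permutation test.

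**Figure D2:**
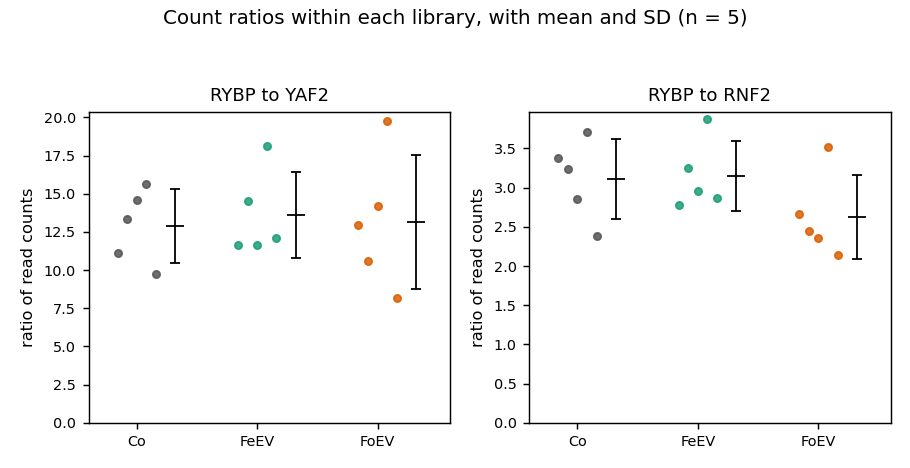
Ratio of RYBP counts to YAF2 counts (left) and to RNF2 counts (right) in each of the 15 libraries by treatment, with axes starting at 0. Points are libraries, and the horizontal mark with its bar is the mean with the SD (n = 5). The RYBP to YAF2 ratio had means of 12.9, 13.6 and 13.1, and the RYBP to RNF2 ratio of 3.11, 3.15 and 2.63, in Co, FeEV and FoEV.

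PCGF1 and PCGF6 each define a variant PRC1 together with RYBP or YAF2, PCGF1 in the complex with KDM2B and BCOR and PCGF6 in the complex with MGA and L3MBTL2. PCGF1 (gene 539040) was the least abundantly counted of the 10, with 17 to 47 counts in a library. Its levels were 9.231 to 13.54 CPM in Co, 7.742 to 13.14 in FeEV and 9.334 to 12.81 in FoEV, and the 3 ranges overlapped. The change was -0.12 in FoEV treatment vs. Co (95% interval -0.51 to 0.27, edgeR unadjusted p = 0.5233). FeEV embryos differed from Co by -0.23, and FoEV from FeEV embryos by 0.11. PCGF6 (gene 507739) had 32.7 ± 4.01 CPM in Co, 32.8 ± 7.83 in FeEV and 30.9 ± 3.902 in FoEV (n = 5, ± SD), a change of -0.08 in FoEV treatment vs. Co (95% interval -0.39 to 0.23, edgeR unadjusted p = 0.5797). At this depth, differences of PCGF1 and PCGF6 of the size seen for RYBP in FoEV treatment vs. Co lay within the interval for PCGF1 and outside it for PCGF6.

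In the PRC2 core, SUZ12 (gene 538774), which holds the complex together, had the smallest p of the 10 genes between the EV treatments in the quasi-likelihood test of edgeR, with a smaller change than RYBP (-0.27 beside -0.32). It had 153.9, 199.1, 160.9, 172.6 and 146.5 CPM in Co and 170.2, 194.6, 162.0, 184.9 and 167.0 CPM in FeEV. In FoEV it had 143.8, 145.0, 147.1, 151.9 and 139.3 CPM. Every FoEV library lay below every FeEV library, a separation in this direction that 0.748% of all genes showed, and the FoEV values were also close together (SD 4.62, beside 20.5 in Co and 13.6 in FeEV). The change of FoEV vs. FeEV treatment was -0.27 (standard error 0.09, 95% interval -0.46 to -0.09), ranked 124 by p and did not pass (edgeR unadjusted p = 0.005743, adjusted p = 0.486). FoEV treatment vs. Co gave -0.20 (95% interval -0.38 to -0.01, edgeR unadjusted p = 0.03805, adjusted p = 0.299), and FeEV treatment vs. Co gave 0.08 (edgeR unadjusted p = 0.409). With log2 total count as a covariate, the changes of SUZ12 were -0.18 in FoEV vs. FeEV treatment and -0.08 in FoEV treatment vs. Co (edgeR unadjusted p = 0.1309 and 0.5221), and without Co replicate 2 the latter was -0.12.

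EED (gene 404183), which reads the methyl mark of PRC2, had 44.12, 76.25, 66.76, 57.8 and 56.63 CPM in Co. It had 54.84, 68.7, 59.74, 57.84 and 50.28 CPM in FeEV and 49.09, 55.5, 58.96, 45.41 and 50.16 CPM in FoEV. Co was the widest group and held both the lowest and the highest value of the 15 libraries. The change in FoEV treatment vs. Co was -0.22 (95% interval -0.49 to 0.05, edgeR unadjusted p = 0.1). It was -0.12 without Co replicate 2 and -0.31 without Co replicate 1, so the size rested on single Co libraries.

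EZH2 (gene 509106), the methyltransferase itself, had nearly equal means in FoEV and Co. They were 80.6 ± 7.73 CPM in Co, 77.6 ± 15.2 in FeEV and 80.3 ± 8.93 in FoEV (n = 5, ± SD), with 104.7 CPM in FeEV replicate 2 as the highest value. FoEV and Co differed by -0.339% (95% interval -15.9% to 18.1%, edgeR unadjusted p = 0.9672). The interval of EZH2 does not reach the -28.8% of RYBP. JARID2 (gene 528253), a cofactor that helps to bring PRC2 to its targets, had 214.2 ± 35.4 CPM in Co, 222.0 ± 37.9 in FeEV and 190.9 ± 40.9 in FoEV. Its change in FoEV treatment vs. Co was -0.17 (95% interval -0.47 to 0.13, edgeR unadjusted p = 0.2588), and it was -0.26 without FoEV replicate 4, -0.10 without FoEV replicate 5 and 0.06 with log2 total count as a covariate.

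**Figure D3:**
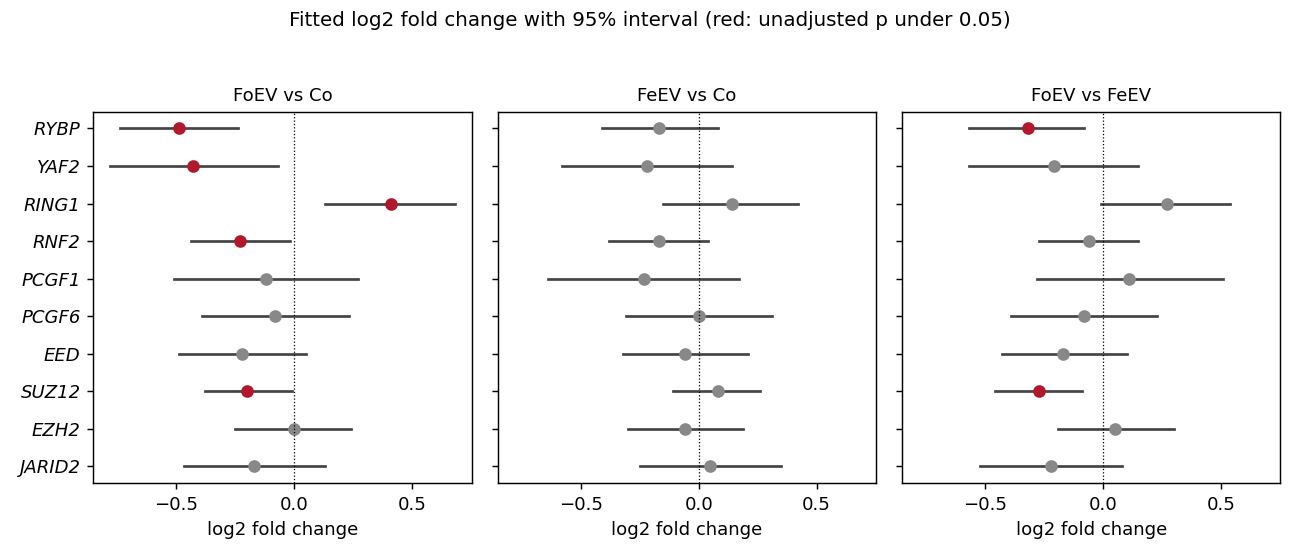
Fitted log2 fold change (horizontal axis) with its 95% interval for each of the 10 polycomb genes in each of the 3 comparisons, named above the panels. Red points have an unadjusted p under 0.05, which is 5, 0 and 2 genes in the 3 panels, and the dotted line marks no change. RING1, at 0.41, is the only gene to the right of 0 in FoEV treatment vs. Co.

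None of the 10 genes passed the adjusted threshold of edgeR's quasi-likelihood test in any of the 3 comparisons (0 genes each). In FoEV treatment vs. Co 9 genes were lower and 1 was higher, where 47.7% of all genes were lower, and their median log2 fold change was -0.18 beside a median of 0.01 over all genes. The edgeR test called 0.00923% of all genes there at the adjusted threshold, the DESeq2 Wald test 1.27% and the robust likelihood ratio test 2.87%, and in each of the latter tests RYBP was the 1 of the 10 genes called. At an unadjusted p under 0.05 stood 5 of the 10 genes, RYBP, YAF2, RNF2 and SUZ12 lower and RING1 higher, where 15.1% of all genes stood (8.18% higher and 6.88% lower). The members were chosen with earlier results of these data known, and the study already lists RYBP as changed. Its place in these counts is therefore no independent evidence. With log2 total count as a covariate, 2 of the 10 genes were left, RING1 (0.52) and YAF2 (-0.56). The share of all genes in that fit is not given here. Every FoEV library was deeper than every Co library, so this loss cannot be read as particular to the 10 genes.

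In FeEV treatment vs. Co 7 genes were lower and 3 higher (49% of all genes were lower), with a median of -0.06 beside 0.00 over all genes. At an unadjusted p under 0.05 stood 0 of the 10 genes and 4.15% of all genes, and at the adjusted threshold edgeR called 0%, DESeq2 0.00923% and the robust likelihood ratio test 0.0554% of all genes, none of the 10. In FoEV vs. FeEV treatment 7 genes were lower and 3 higher (48.2% of all genes were lower), with a median of -0.12 beside 0.01, and 2 of the 10 (RYBP and SUZ12, both lower) stood at an unadjusted p under 0.05, where 8.52% of all genes stood (3.69% lower). The adjusted threshold called 0% of all genes there with edgeR, 0.0277% with DESeq2 and 0.286% with the robust likelihood ratio test, none of the 10.

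The wider polycomb system was read from 53 further genes, of which 48 passed the filter. In FoEV treatment vs. Co 26 of these were higher and 22 lower, with a median of 0.03. In each of the 3 comparisons 0 of the 48 passed the adjusted threshold, in edgeR's quasi-likelihood test, in its robust likelihood ratio test and in DESeq2. At an unadjusted p under 0.05 stood 8 of 48, 7 of them lower, beside 15.1% of all genes (6.88% lower). With log2 total count as a covariate 1 of 48 was left. The share of all genes in that fit is not given here, so this loss cannot be read as particular to polycomb genes. In FeEV treatment vs. Co 18 were higher and 30 lower, where 49% of all genes were lower. At an unadjusted p under 0.05 stood 0 of 48 there, beside 4.15% of all genes. Between EV treatments 25 were higher and 23 lower, where 48.2% of all genes were lower, and 6 of 48 stood at that p, beside 8.52% of all genes.

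Canonical PRC1 was represented by 8 of 12 listed genes, since CBX7, CBX8, SCMH1 and SCML2 did not pass the filter. Of these 8, 6 were higher and 2 lower in FoEV treatment vs. Co, with a median of 0.10. BMI1, a PCGF protein of canonical PRC1 and the gene of the list with the highest mean CPM, which is not corrected for length, had 59.9 ± 7.50 CPM in Co, 52.3 ± 9.86 in FeEV and 49.0 ± 4.33 in FoEV (n = 5, ± SD), a change of -0.29 in FoEV treatment vs. Co (edgeR unadjusted p = 0.03101, adjusted p = 0.277). CBX6, a chromobox protein, had 7.672 CPM in Co, 5.339 in FeEV and 7.932 in FoEV on average. It had the smallest p of the list in the other comparisons, with -0.50 for FeEV embryos against Co and 0.54 for FoEV against FeEV embryos (edgeR unadjusted p = 0.08226 and 0.0522).

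The genes of variant PRC1 were all expressed above the filter (24 of 24), with 13 higher and 11 lower in FoEV treatment vs. Co and a median of 0.02. KDM2B, the protein that brings the PCGF1 complex to CpG islands, had 204.0 ± 50.9 CPM in Co, 171.2 ± 20.2 in FeEV and 155.2 ± 25.3 in FoEV (n = 5, ± SD). Its change in FoEV treatment vs. Co was -0.39 (standard error 0.14, edgeR unadjusted p = 0.0133, adjusted p = 0.214). E2F6 (-0.37), HDAC2 (-0.31) and CBX3 (-0.20), which take part in the PCGF6 complex, were lower at an unadjusted p under 0.05, and CSNK2B (0.22), the regulatory subunit of casein kinase, was higher. MGA, the scaffold of the PCGF6 complex, had the highest mean CPM of the list, at 341.1 ± 25.3 CPM in Co, 331.4 ± 5.58 in FeEV and 299.9 ± 45.5 in FoEV. HDAC2, a histone deacetylase that other complexes also use, had the smallest p of this list between EV treatments, with 59.7 ± 6.43 CPM in FoEV and 75.6 ± 15.0 in FeEV (change -0.33, edgeR unadjusted p = 0.01322, adjusted p = 0.5). In FeEV treatment vs. Co the smallest p belonged to MAX, the partner of MGA, with a change of -0.28 (edgeR unadjusted p = 0.05413).

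Of the further PRC2 genes, 9 of 9 passed the filter, and 4 were higher and 5 lower in FoEV treatment vs. Co. AEBP2, a cofactor that stabilises PRC2, had 120.2 ± 20.4 CPM in Co, 119.2 ± 9.60 in FeEV and 100.5 ± 10.3 in FoEV (n = 5, ± SD). Its changes were -0.26 against Co and -0.24 against FeEV embryos (edgeR unadjusted p = 0.02477 and 0.03431, adjusted p = 0.257 and 0.56). LCOR, whose locus also encodes a PRC2 cofactor, had the highest mean CPM, at 272.7 CPM in Co, 271.4 in FeEV and 234.7 in FoEV, and PHF1 had the smallest p in FeEV treatment vs. Co (change -0.24, edgeR unadjusted p = 0.3644).

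The enzymes that remove polycomb marks, and their cofactors, were represented by 7 of 8 listed genes (ASXL3 did not pass the filter). ASXL2, a cofactor of the histone deubiquitinase BAP1, had 207.5 ± 13.1 CPM in Co, 198.0 ± 20.5 in FeEV and 174.5 ± 15.4 in FoEV (n = 5, ± SD). The FoEV range of ASXL2 (156.8 to 191.0 CPM) lay just below the Co range (191.2 to 227.6), as 1.35% of all genes did. Its change was -0.25 (standard error 0.09, edgeR unadjusted p = 0.01039, adjusted p = 0.199), the smallest adjusted p among the 48 genes. BAP1 itself had 45.3 ± 1.79 CPM in Co, 44.1 ± 3.81 in FeEV and 52.6 ± 7.60 in FoEV, higher in FoEV than in FeEV by 0.25 (edgeR unadjusted p = 0.03379, adjusted p = 0.558). USP16, another deubiquitinase, had the smallest p of the list in FeEV treatment vs. Co (change 0.11, edgeR unadjusted p = 0.2139).

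**Figure D4:**
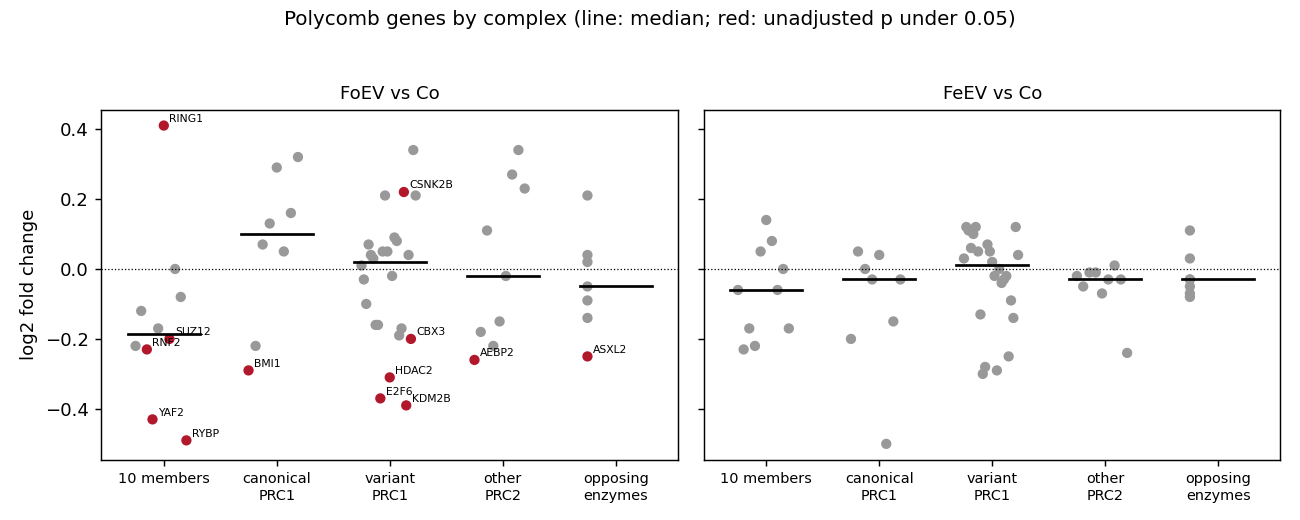
Fitted log2 fold change (vertical axis) of each polycomb gene past the filter, by group, in FoEV treatment vs. Co (left) and FeEV treatment vs. Co (right). Points are genes, horizontal lines are group medians, and red points with symbols have an unadjusted p under 0.05. In FoEV treatment vs. Co the median of the 10 genes was -0.18 and those of the other 4 groups lay from -0.05 to 0.10, while in FeEV treatment vs. Co 0 genes are red.

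HOX genes, the textbook targets of polycomb silencing, were near the floor of detection in all treatments. Of 39 HOX genes, 4 passed the filter (HOXC10, HOXC13, HOXB4 and HOXD4), 3 had 0 counts in all libraries, and together they took 2623 counts over the 15 libraries. Their summed level averaged 51.1 ± 5.16 CPM in the 5 Co, 53.3 ± 11.1 in the 5 FeEV and 61.2 ± 5.22 in the 5 FoEV libraries (SD), from 113 to 281 counts in a library. The Co libraries ranged from 46.37 to 59.04 CPM and the FoEV libraries from 55.61 to 67.77, so the groups overlapped. HOXD4 had 3.17 ± 1.76 CPM in Co and 5.67 ± 2.05 in FoEV, a change of 0.84 (standard error 0.36, edgeR unadjusted p = 0.02936, adjusted p = 0.271) on 3 to 38 counts per library. HOXC13 had 5.68 ± 1.23 CPM in Co, 3.59 ± 0.758 in FeEV and 6.63 ± 0.904 in FoEV, so that the FeEV embryos were the low group, with changes of -0.66 against Co and 0.87 for FoEV vs. FeEV treatment (edgeR unadjusted p = 0.0194 and 0.002115, adjusted p = 1 and 0.45). HOXC10 and HOXB4 differed between FoEV and Co by -0.05 and -0.08. Among the cell cycle inhibitors that polycomb represses in other cells, CDKN1A passed the filter, with 25.5 ± 3.96 CPM in Co, 19.6 ± 7.76 in FeEV and 24.2 ± 7.40 in FoEV, while CDKN2A and CDKN2B had at most 4 counts in a library and CDKN1C at most 15.

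Across the 15 libraries, the genes whose log2 CPM ran most like RYBP were BAZ1B, a subunit of a chromatin remodelling complex (Pearson r = 0.90 over libraries, 0.94 within treatments), AMMECR1L (0.89 and 0.78), ZNF292, a zinc finger protein (0.88 and 0.75), WDR82, a subunit of histone methyltransferase complexes (0.88 and 0.91), and TRIM32, a ubiquitin ligase (0.87 and 0.72). Most opposite were S100A14 (-0.92 and -0.81), MRPL57, a mitochondrial ribosomal protein (-0.90 and -0.78), DNPEP (-0.89 and -0.85), ARPC1A, an actin-nucleating complex subunit (-0.88 and -0.82), and KRT18, a keratin of the trophectoderm (-0.87 and -0.74). These are the extremes of 10831 correlations over libraries that share depth and composition and are given as a description. KRT18 had 2684 ± 404 CPM in Co, 3216 ± 638 in FeEV and 3929 ± 520 in FoEV (n = 5, ± SD), so RYBP was low in the libraries with much KRT18. Correlations of the other trophectoderm markers with RYBP are not given. Between FoEV and Co, KRT8, GATA2, GATA3 and CDX2 were also higher, whereas TFAP2A was lower (-0.49), none past the adjusted threshold. The part of cell composition in the RYBP result was not tested.

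Within treatments, RYBP was set against the other 9 members and the log2 total count, as deviations from the treatment means over 15 libraries. SUZ12 deviated together with RYBP at a Pearson r of 0.70 (permutation p = 0.0081, and 0.0405 when adjusted over the 10 relations). Spearman's rho was 0.78 (permutation p = 0.00148). With the 2 libraries farthest from the median RYBP deviation left out, r was 0.75, and the same 2 were left out of each relation below. The RYBP deviations ran alike in libraries of the same replicate number in all treatments (0.35, 0.21 and 0.27 for replicate 4, and -0.30, -0.18 and -0.25 for replicate 5, in Co, FeEV and FoEV). The 15 deviations may therefore not be independent, and the permutation p of these relations may be too small. An r as high or higher was found for 2.39% of all other genes, so SUZ12 was not alone in this. JARID2 gave r = 0.56 (permutation p = 0.05246, adjusted p = 0.175, and 0.38 with the 2 farthest libraries left out) and rho = 0.49 (permutation p = 0.09442), and the other 7 members gave r from -0.41 (PCGF1) to 0.21 (EED), none with an adjusted p under 0.05. The log2 total count gave r = -0.58 (permutation p = 0.00285, adjusted p = 0.0285, and -0.54 with the 2 farthest libraries left out) and rho = -0.59 (permutation p = 0.02621), so libraries with more counts than the mean of their treatment tended to hold less RYBP. FeEV replicates 4 and 5, which deviated most in log2 total count (-0.46 and 0.37), were not among the libraries left out.

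**Figure D5:**
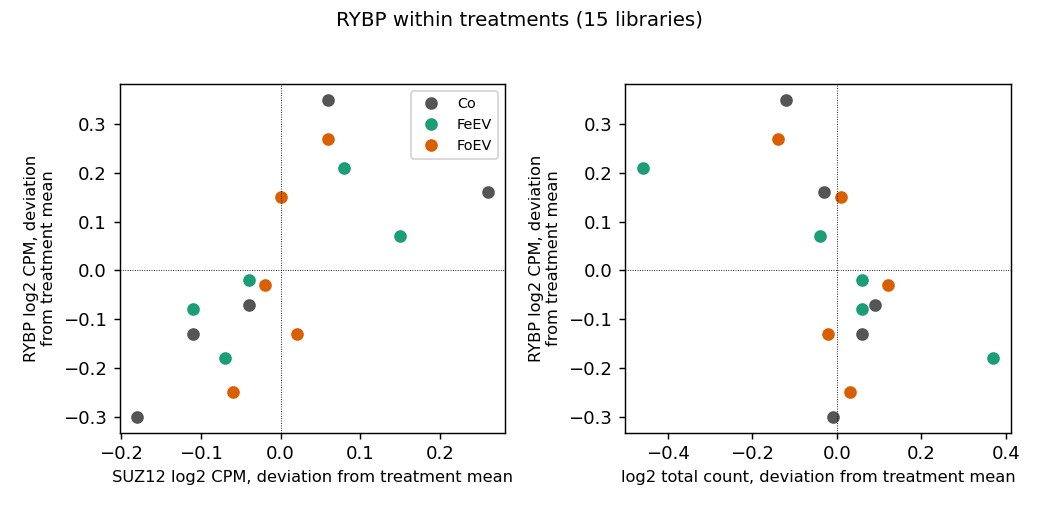
RYBP log2 CPM as deviation from the treatment mean (vertical axes) against the same deviation of SUZ12 log2 CPM (left) and of log2 total count (right). Points are the 15 libraries, coloured by treatment. Pearson r was 0.70 for SUZ12 and -0.58 for the total count.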

How the data were processed

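The authors deposited read counts per gene without normalization for 15 libraries, 5 per treatment, in a table of 34773 genes and a filtered table of 10832. Library kits included strand selection and removal of ribosomal fragments. The submitters' processing notes name Trim Galore 0.4.3.1, HISAT2 2.1.0 and featureCounts 1.6.3 with the assembly ARS-UCD1.2 (bosTau9), whereas the study's methods name QuasR Qcount for counting, and which of these made the deposited counts was not settled. How reads with several matches were treated is not given in the sources used here, so near-identical gene copies cannot be told apart. Reads were counted without molecular identifiers, and the floor of 3 counts (7.39e-05% to 0.00014% of a library) covers counting error only.

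Symbols were joined by gene ID to RefSeq genes of ARS-UCD2.0, a later assembly (10709 of 10832 matched), so no coordinates are given. Filtered counts were TMM-scaled and fitted with edgeR 4.0.16 in R 4.3.3 (estimateDisp, glmQLFit with robust=TRUE, glmQLFTest), with treatment as the only factor in 1 fit over all libraries, and p-values were adjusted by Benjamini-Hochberg over all 10832 genes (threshold 0.05). Log2 CPM used a prior count of 2, and ratios added 0.5 to each count. Ratios were compared with two-sided exact permutation tests and relations with 100000 permutations (Python 3.11.15, scipy 1.17.1, numpy 2.4.6, pandas 2.3.3, with matplotlib 3.10.9 for figures). Alternatives were DESeq2 1.42.0 (Wald test, size factors), robust dispersions with a likelihood ratio test, other filters, thinned counts, replicate and library number blocks, fits of 2 groups, and each library left out in turn. Counts were thinned in a single random draw. A total count covariate was added after the data were seen. Scripts were tested on simulated data.

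The members and gene lists were chosen with earlier results of these data known. Named genes are the 10 members, in each wider list the gene of smallest p in each comparison and the one of highest mean CPM, the 5 genes most and least correlated with RYBP, and the targets past the filter, beside the cell type markers. E2F6, CBX3 and CSNK2B were outside this rule and were named after their values were seen. Libraries of 1 treatment are separate embryo pools. Their counts differed by 3.73 to 30.1 times sampling noise (chi-square per degree of freedom), so none was a duplicate. Sequences and transcript lengths were not used here.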

Additional observations from a re-analysis of the deposited data

Results flagged for a closer look

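In 36 groups of 5 libraries tested, 4 held a library far from the others by Dixon's criterion, where chance gives about 1 in 20. YAF2 in Co replicate 3 was 14.51 CPM, with the other Co libraries at 18.06 to 18.56. RNF2 in Co replicate 1 was 60.16 CPM, with the others at 74.17 to 76.58, and without that library the change of RNF2 in FoEV treatment vs. Co was -0.29 and that in FeEV treatment vs. Co -0.23. FeEV replicate 2 stood apart for EZH2 and for JARID2. EZH2 was 104.7 CPM in it, with the other FeEV libraries at 69.13 to 73.02, and JARID2 was 287.4 CPM, with the others at 193.1 to 220.4. Without this library the change of EZH2 in FeEV treatment vs. Co was -0.19, and that of JARID2 was -0.06.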

How the results depend on the processing

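RYBP in FoEV treatment vs. Co was lower in every alternative run, but its call depended on the fit. Its edgeR or DESeq2 adjusted p was under 0.05 with the DESeq2 Wald test (change -0.50), with all genes of at least 1 count (-0.50), with robust dispersions and a likelihood ratio test (-0.47) and with the replicate block (-0.48, adjusted p = 0.0126), and in these fits 1 of the 10 genes was called instead of 0. The cause of this dependence on the fit was not tested. Of all 10832 genes in FoEV treatment vs. Co, the main fit called 1 and the replicate block 57. The DESeq2 Wald test called 138 and the robust likelihood ratio test 311. How many genes were called in the fit on all genes of at least 1 count is not given here. The library number of the descriptions as block gave a change of -0.45 for RYBP, not past the threshold (edgeR adjusted p = 0.1946). With 1 library left out in turn, the change ran from -0.56 (without Co replicate 5) to -0.40 (without Co replicate 4) and edgeR adjusted p from 0.05644 to 0.2881.

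Libraries of different treatments share a replicate number in the titles, and some share a library number in the descriptions. These numbers differ, since Co replicate 3 and FoEV replicate 2 both have library number 4. The correlations below pair libraries by the number in the titles. For FoEV and Co, same-number deviations over all genes correlated at 0.03 on average (-0.29 to 0.35), above 0.1 in 1 of 5 pairs, and for FeEV and Co and for both EV treatments in 3 of 5. Only 1, 2 and 2 of 5 libraries correlated best with their own number. The replicate block moved the adjusted calls over all genes in FoEV treatment vs. Co from 1 to 57, and the wider polycomb genes at an unadjusted p under 0.05 in FoEV vs. FeEV treatment from 6 to 10 (2 with the library number of the descriptions as block). The share of all genes at that unadjusted p with either block is not given here. Taken by the number in the titles, RYBP was lower in FoEV than in Co in 5 of 5 pairs. By the library number of the descriptions, FoEV and Co share numbers 4, 5 and 6. For number 4 RYBP was 176.1 CPM in FoEV and 211.6 in Co, and for number 5 144.9 and 282.6. For number 6 it was higher in FoEV, at 191.6 CPM beside 180.2 in Co. Neither pairing is a stated part of the design.

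The count of the 10 genes at an unadjusted p under 0.05 in FoEV treatment vs. Co (5) was 3 with all genes of at least 1 count and 3 with only the groups compared, and 2 with the total count covariate. With 1 library left out it was 3 (without Co replicate 2) to 6, in FeEV treatment vs. Co 0 to 1 and in FoEV vs. FeEV treatment 2 to 3 (1 with the covariate). For the wider genes it was 4 (without Co replicate 2) to 13 (without FoEV replicate 2), 0 to 2 and 4 (without FeEV replicate 4) to 10 (without FoEV replicate 3). The covariate gave 1, 1 and 3, and all genes or only the groups compared gave 1 in FeEV treatment vs. Co. The share of all genes at that p in these other fits is not given here. These shifts can therefore not be read as particular to polycomb genes.

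Small changes turned sign. With thinned counts PCGF6 was 0.03 and EZH2 0.11 in FoEV treatment vs. Co, and in FeEV treatment vs. Co PCGF6 was 0.05 (0.00 with all genes of at least 1 count) and the log2 ratios of RYBP to YAF2 and to RNF2 differed by -0.06 and -0.04. With the covariate EZH2 was 0.03 and JARID2 0.06 in FoEV treatment vs. Co, and PCGF1 -0.03 between EV treatments. With 1 library left out, EZH2 ran from -0.08 to 0.03 in FoEV treatment vs. Co and from -0.02 to 0.18 between EV treatments, PCGF6 from -0.12 to 0.07 in FeEV treatment vs. Co and from -0.16 to 0.04 between EV treatments, and EED (-0.15 to 0.04) and JARID2 (-0.06 to 0.11) turned in FeEV treatment vs. Co. The RYBP to YAF2 difference ran from -0.18 to 0.14, -0.03 to 0.15 and -0.25 to 0.06 in the 3 comparisons, and that of RYBP to RNF2 from -0.36 to -0.18, -0.07 to 0.09 and -0.38 to -0.19. Apart from the turns just listed, all results on the 9 members other than RYBP kept direction and side of the adjusted threshold (263 of 270 alternative values, and 391 of 405 with 1 library left out). PCGF1, YAF2 and the HOX genes had few counts, which limits their precision.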
